A study of Mus musculus with 10 samples.

Results

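The genes described here encode the nuclear subunits of oxidative phosphorylation in mouse pancreatic islets. They are all genes on the array whose symbol begins with Nduf followed by a, b, c, s or v, with Uqcr, with Atp5, with Cox4 to Cox8, or is Sdha, Sdhb, Sdhc or Sdhd. This gave 90 genes of 18193 named on the array, read by 179 probe sets. The rule uses symbols and no measured value. It also takes in 8 assembly factors of complex I (Ndufaf1 to Ndufaf8), Ndufa4l2, a paralog of Ndufa4, and Cox7a2l, a factor that joins complexes III and IV. It leaves out cytochrome c1 (Cyc1) and the subunits encoded by mitochondrial DNA.

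Islets came from 10 female mice aged 5 weeks, of a strain given as C57 on a 129 background. Of these, 5 were heterozygous for Men1 and 5 were their wildtype littermates. Men1 encodes menin, a nuclear protein that restrains growth of endocrine cells. The labels name neither the kind of Men1 allele nor the cells that carry it. About 100 islets were pooled from each mouse, 100 ng of RNA was amplified over 2 cycles, and each sample was hybridised to 1 array, so that a replicate is a mouse. Islets isolated in this way hold endocrine cells together with vessels, stroma and attached exocrine tissue.

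Oxidative phosphorylation is the last stage of respiration. Complex I takes electrons from NADH and complex II from succinate, and ubiquinone carries them to complex III. Cytochrome c carries them on to complex IV, which reduces oxygen, and ATP synthase, complex V, uses the proton gradient that results. In beta cells the ATP made from glucose closes potassium channels, and the calcium that then enters releases insulin, so that respiration couples glucose to secretion. Many of these nuclear genes carry sites for the transcription factors NRF1, GABP (an ETS factor) and YY1 near their start.

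The promoters below belong to 4 genes that held the NRF1 motif, given below, in the 250 bases before their start. Of the genes with that motif, these 4 followed the mean of the other genes most closely from mouse to mouse, as described further on. Genes on a single chromosome were left out beforehand. The motif was thus a condition of the choice. Each promoter is the 250 bases before the gene's start in RefSeq (GRCm38.p6), 5′ to 3′ on the gene's strand. That is the minus strand for all 4. Capitals mark the first match to the NRF1 motif on either strand, which is GCGCA, then any base, then GCGC. Atp5k lies at chr5:108434400-108434649, Ndufa8 at chr2:36049339-36049588, Sdhd at chr9:50603850-50604099 and Atp5c1 at chr2:10080433-10080682.
Atp5k: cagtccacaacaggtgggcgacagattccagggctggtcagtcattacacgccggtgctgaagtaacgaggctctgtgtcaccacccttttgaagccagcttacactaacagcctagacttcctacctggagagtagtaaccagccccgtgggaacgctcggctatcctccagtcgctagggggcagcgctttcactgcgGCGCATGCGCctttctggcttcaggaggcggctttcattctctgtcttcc
Ndufa8: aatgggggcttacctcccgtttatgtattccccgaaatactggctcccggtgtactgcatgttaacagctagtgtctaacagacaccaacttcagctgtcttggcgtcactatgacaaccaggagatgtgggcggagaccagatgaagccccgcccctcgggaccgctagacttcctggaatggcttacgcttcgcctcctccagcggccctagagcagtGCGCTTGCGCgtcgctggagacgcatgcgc
Sdhd: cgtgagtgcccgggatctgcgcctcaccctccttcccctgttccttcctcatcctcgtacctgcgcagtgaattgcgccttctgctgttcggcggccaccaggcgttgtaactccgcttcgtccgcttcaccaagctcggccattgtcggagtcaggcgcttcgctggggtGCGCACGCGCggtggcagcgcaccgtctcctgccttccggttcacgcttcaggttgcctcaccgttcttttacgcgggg
Atp5c1: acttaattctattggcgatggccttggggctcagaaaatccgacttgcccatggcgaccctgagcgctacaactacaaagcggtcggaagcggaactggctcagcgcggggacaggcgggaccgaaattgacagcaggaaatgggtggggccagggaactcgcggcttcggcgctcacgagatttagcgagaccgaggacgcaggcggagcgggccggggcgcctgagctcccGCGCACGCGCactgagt

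Of the 90 genes, 74 had a promoter in that table, read over 300 bases that include the first 50 after the start. The NRF1 motif stood in 17 of these 74 (23.0%), against 5.19% of the promoters of 27025 genes and 12.0% of those of 8576 genes measured in these islets. The ETS motif CTTCCGG, searched like the others on both strands, stood in 19 (25.7%), against 9.93% and 20.2%. The YY1 motif AAGATGGCG stood in 7 (9.46%), against 1.64% and 3.74%. On the other strand an ETS match can share its last 3 letters with the start of a YY1 match. In all, 37 of the 74 promoters held at least 1 of the 3 motifs. This joint count was not made over all genes or over measured genes, so it stands without a comparison. A match says that the letters are there and does not show binding.

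The comparison took the 18567 probe sets that exceeded a floor of 4 (log2) in 5 or more of the 10 mice. Of the 179 member probe sets, 147 passed, for 82 of the 90 genes. A positive difference means a higher log2 level in heterozygous islets, each level is given with its SD over 5 mice, and SE stands for the standard error of a fitted difference or slope. Where a gene has several probe sets, the brightest one that passed is given. Array medians lay between 3.28 and 3.40, and 18458 to 18890 probe sets per array were above 4. Markers of lymphocytes stood apart in heterozygous mouse 2 (mean log2 level 7.01 over 6 genes), heterozygous mouse 5 (6.51) and wildtype mouse 5 (5.70), against 4.69 to 4.88 in the other 7. The mean of 17 stromal markers was 9.59 ± 0.31 (SD, n = 5) in wildtype mice, against 8.92 ± 0.63 (SD, n = 5) in heterozygotes. Men1, measured as the targeted gene, stood at 6.89 ± 0.39 and 6.42 ± 0.30, with a difference of -0.47 (SE 0.20) and overlapping groups. The labels do not place its probe set relative to the altered part of the gene, so this is no check of the labels.

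The genes were bright. The median level of the 82 was 11.11, against 7.15 over all probe sets kept, and their median SD over the 10 mice was 0.19, against 0.25. Brightness depends on the probes as well as on the transcript, so levels are given by complex and genes are not ranked. In complex I the 6 core subunits read here ran from 9.59 (Ndufs1) to 11.72 (Ndufv1, the subunit that binds NADH). The 26 of 28 accessory subunits that passed ran from 8.55 (Ndufs5) to 14.37 (Ndufa1), with a median of 11.49. The 8 assembly factors ran from 5.87 (Ndufaf5) to 10.19 (Ndufaf8), with a median of 6.95.

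Complex II, the succinate dehydrogenase of the citric acid cycle, had all 4 genes above the floor, from 8.64 (Sdhc) to 11.09 (Sdha). The 8 genes of complex III ran from 6.30 (Uqcr10) to 13.34 (Uqcrb), around a median of 10.85. Complex IV, cytochrome c oxidase, had 12 of 17 genes above the floor, from 4.16 (Cox8a) to 13.82 (Cox6a1), with a median of 12.64. In ATP synthase the 5 genes of the F1 head, the catalytic part, ran from 10.52 (Atp5d) to 13.38 (Atp5a1). The 12 genes of the membrane part and stalks, Fo, ran from 8.55 (Atp5g2) to 14.07 (Atp5g3, a gene for the c ring).

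The 8 genes with no probe set above the floor were mostly isoforms known from other tissues. Cox7a1 (highest mean level of any of its probe sets 2.59) and Cox8b (2.90) are the heart and muscle isoforms of subunits 7A and 8. Cox6b2 (2.47) and Cox7b2 (2.56) are testis isoforms, and Cox4i2 (2.43) is known from lung. Ndufa4l2 (2.36) is induced by low oxygen, and it too lay below the floor. Ndufb1 (1.96) and Ndufb4 (2.06) are ordinary subunits of complex I with no named probe set above the floor. Values under 4 lie near background and set only an upper limit.

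The tissue isoforms Cox6a2 and Cox8c departed from that pattern. Cox6a2, the heart and muscle isoform of subunit 6A, was well above the floor, with log2 values of 9.49, 7.67, 10.05, 8.83 and 9.32 in wildtype mice 1 to 5. In heterozygous mice 1 to 5 it read 8.61, 8.06, 8.91, 9.49 and 9.14. The lowest and highest values were both wildtype, and the groups overlapped. Its second probe set followed the same order of mice at the extremes, from 6.53 in wildtype mouse 2 to 8.97 in wildtype mouse 3. The common isoform Cox6a1 had means of 13.77 ± 0.14 and 13.88 ± 0.14 in the same order (SD, n = 5). Of the 10 striated muscle markers, 9 lay below the floor, among them Ckm (at most 2.91), Mb (at most 2.50) and Acta1 (at most 3.48), and Mylpf read 4.11 to 4.82. Cox8c, the testis isoform of subunit 8, read 6.67 to 8.61 in wildtype and 7.34 to 8.96 in heterozygous islets on a probe set whose suffix (_x_at) marks probes that may match other transcripts. Its other probe set had a mean of 1.69, so the 2 probe sets disagree. The common isoform Cox8a lay at the floor, with a mean of 4.16.

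**Figure D1:**
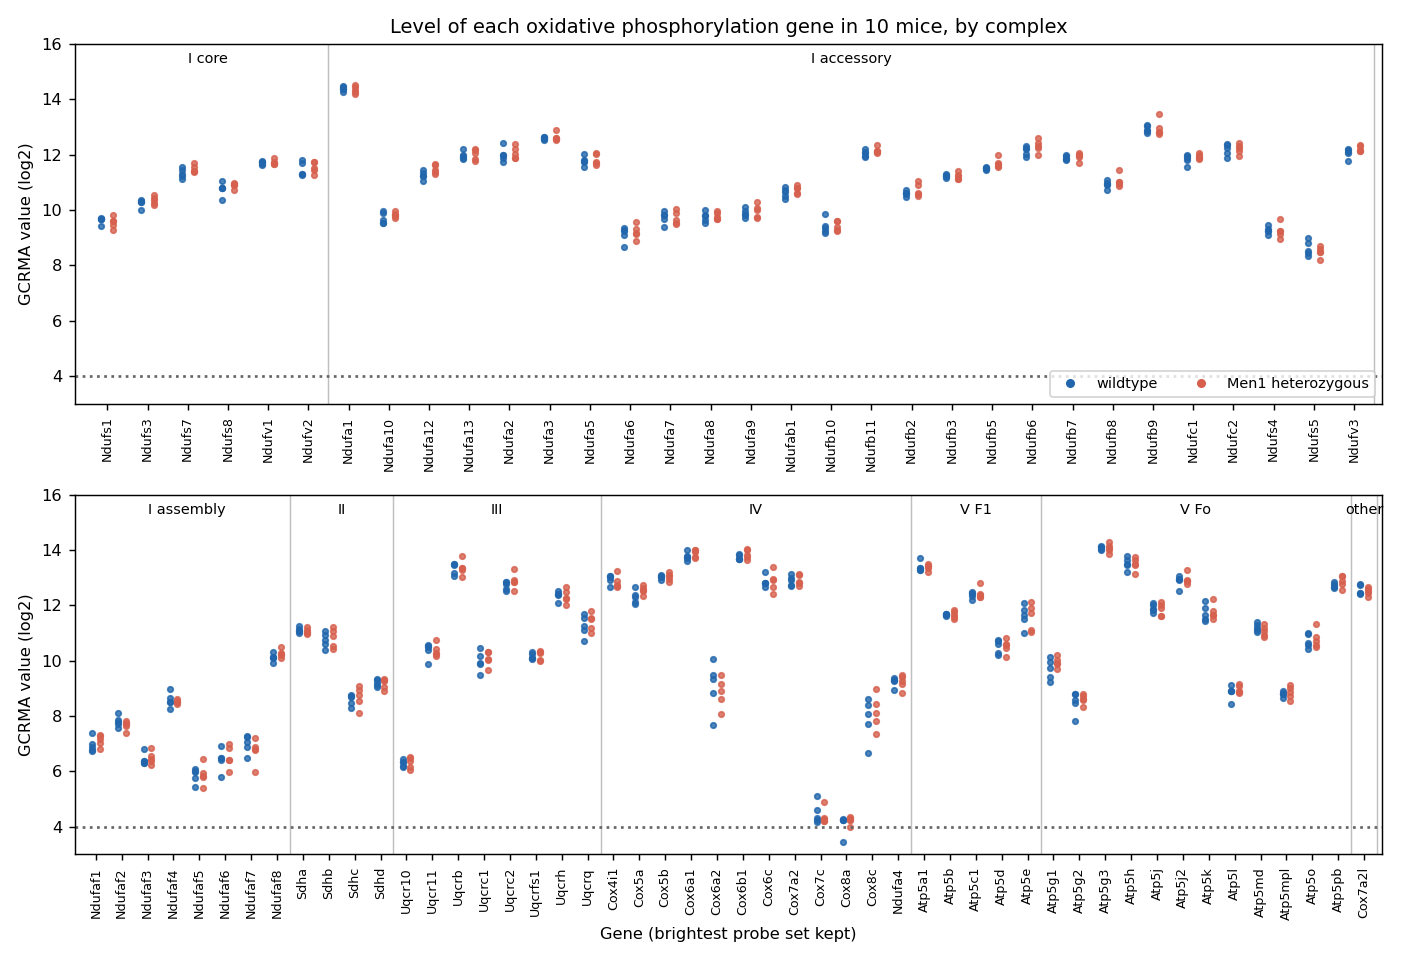
Log2 GCRMA level (vertical axis) of the 82 genes above the floor, by complex, with 1 point per mouse (blue, 5 wildtype; red, 5 heterozygous) and the floor of 4 dotted. Within nearly every gene the 10 points lie close together and the colours mix, while Cox6a2 and Cox8c spread over more than 2 log2 units.

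The comparison of genotypes asked which transcripts differ between islets of Men1 heterozygous and wildtype mice. In limma's fit, 0 of the 147 member probe sets passed an adjusted p of 0.05 (Benjamini-Hochberg over all 18567), and 0% of all probe sets did. At an unadjusted p under 0.05 there was 1 of 147 (0.680%), against 4.09% of all. The differences were small, with a median of 0.043 over the 147 probe sets, against 0.022 over all, and 102 of the 147 were higher in heterozygous islets (69.4%), against 56.4% of all. For 76 of the 82 genes the 95% interval lay within a 1.5-fold difference either way, and over probe sets this held for 91.8% of members and 71.1% of all. The 6 genes with wider intervals were Atp5e, Atp5g1, Cox6a2, Cox8c, Ndufaf6 and Ndufaf7.

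The lean towards higher values rested on single mice. Without heterozygous mouse 2 the median difference was -0.0026, with 70 of 147 probe sets higher (47.6%, against 56.5% of all). Without wildtype mouse 5 it was 0.00019, with 74 higher (50.3%, against 55.5%). Without heterozygous mice 2 and 5, left out for their lymphocyte markers after the data were seen, it was -0.017, with 60 higher (40.8%, against 50.3%). Leaving out any other mouse gave medians from 0.047 to 0.083.

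In complex I, 5 of 6 core genes were higher, with a median difference of 0.081. Ndufs7, an iron-sulphur subunit next to the ubiquinone site, stood at 11.33 ± 0.17 and 11.49 ± 0.14 (difference 0.16, SE 0.11). Ndufs8, another iron-sulphur subunit on that path, differed by 0.14 (SE 0.12). Of 26 accessory genes 21 were higher, with a median of 0.065. Ndufa12 read 11.36, 11.25, 11.24, 11.45 and 11.03 in wildtype mice and 11.29, 11.68, 11.39, 11.46 and 11.62 in heterozygous mice. Its groups overlapped, at a difference of 0.22 (SE 0.11), and its other 2 probe sets gave 0.11 and 0.13. Ndufb5 differed by 0.19 (SE 0.10), with heterozygous mouse 2 at 12.00 above the rest. Among assembly factors, 5 of 8 were higher. The genes with the smallest p went opposite ways, Ndufaf8 at 0.15 (SE 0.11) and Ndufaf2 at -0.15 (SE 0.12).

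Complex II was split, with 2 genes higher and 2 lower. The iron-sulphur subunit Sdhb differed by 0.094 (SE 0.18) and the anchor Sdhc by 0.11 (SE 0.18). The flavoprotein Sdha differed by -0.044 (SE 0.088) and the anchor Sdhd by -0.035 (SE 0.11). None of these exceeded its own standard error. In complex III, 6 of 8 were higher, with a median of 0.032. The core protein Uqcrc2 differed by 0.17 (SE 0.14) and Uqcrq, a small subunit, by 0.13 (SE 0.20).

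In complex IV, 8 of 12 were higher, with a median of 0.013. Cox5a, a subunit present in all tissues, read 12.11, 12.65, 12.05, 12.37 and 12.29 in wildtype and 12.53, 12.71, 12.56, 12.61 and 12.32 in heterozygous mice. Wildtype mice 2 and 4 lay inside the heterozygous range, and the difference was 0.25 (SE 0.13, 95% interval -0.027 to 0.54). Its other probe sets gave 0.18 (SE 0.088) and 0.065 (SE 0.18). Its partner Cox5b differed by 0.0025 (SE 0.090), and the common isoforms Cox4i1, Cox6a1, Cox6b1, Cox7a2 and Cox8a by -0.090 to 0.13. Ndufa4, now counted to complex IV despite its name, differed by -0.011 (SE 0.14), and Cox7a2l by -0.058 (SE 0.11). The tissue isoforms were measured least closely. Cox6a2 differed by -0.23 (SE 0.41) and Cox8c by 0.24 (SE 0.38), so that a 2-fold difference lies inside both intervals.

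In ATP synthase the F1 genes were level, at a median of -0.0075, with 2 of 5 higher. The catalytic beta subunit gene Atp5b read 11.63 to 11.69 in wildtype and 11.49 to 11.81 in heterozygous mice, a difference of -0.015 (SE 0.085). Atp5c1, the gene of the rotating gamma subunit, differed by 0.061 (SE 0.11). Of the Fo genes 8 of 12 were higher, with a median of 0.068. Atp5g1, another gene of the c ring, differed by 0.26 (SE 0.18) and Atp5pb, a stalk subunit, by 0.14 (SE 0.11).

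In 2 of 147 probe sets every heterozygous mouse was higher than every wildtype mouse, and 0.528% of all probe sets showed this. Including both directions, the groups did not overlap in 2 of 147 members and in 0.700% of all. The first reads Atp5o, the stalk subunit that holds the F1 head. It read 10.13, 10.38, 10.35, 10.19 and 9.85 in wildtype mice and 10.41, 10.70, 10.83, 10.51 and 10.65 in heterozygous mice. The difference was 0.44 (SE 0.12), with an adjusted p of 0.9999 in limma and the only unadjusted value under 0.05 among the members, 0.0051. The brighter Atp5o probe set gave 0.083 (SE 0.17) with overlapping groups. The second reads Ndufa7, an accessory subunit of complex I, with a difference of 0.26 (SE 0.14), while the brightest of its 5 probe sets gave -0.0063 (SE 0.14). Both carry the suffix _x_at. For both genes the separation was thus seen on 1 probe set and not on the brightest one.

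**Figure D2:**
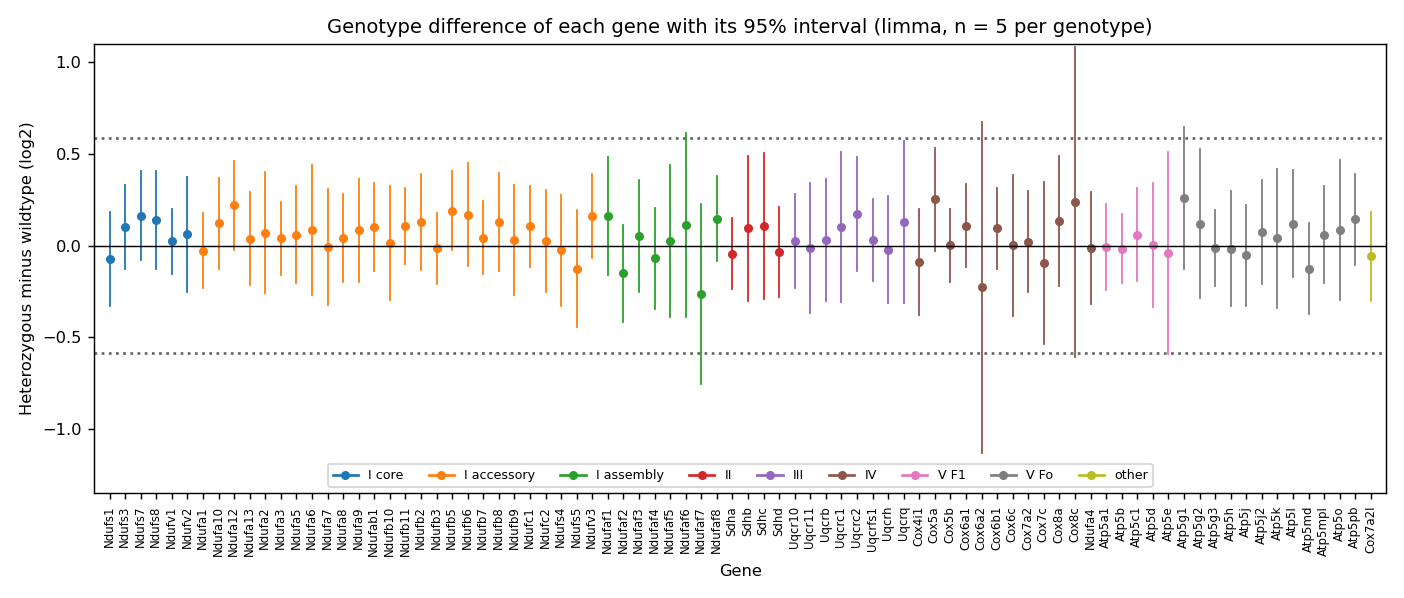
Genotype difference (vertical axis, log2) of the 82 genes with 95% intervals from limma (n = 5 per genotype), coloured by complex, with dotted lines at a 1.5-fold difference. All intervals but 6 lie inside the dotted lines, and every interval includes 0.

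The genes varied together from mouse to mouse. After genotype means were removed, the median Pearson r over the 10 mice was 0.36 for the 3321 pairs of the 82 genes, and 77.4% of pairs were positive. It was 0.040 with 53.5% positive for pairs among 1 in 6 of all probe sets kept, and 0.13 among other probe sets about as bright as the members. These values share the same 10 arrays, their depth and their normalization, and are given as a description. Within complexes the median r was highest for the complex I core (0.52) and accessory genes (0.45) and the Fo genes (0.40), and lowest for F1 (0.13). Complex III reached 0.30, complex II 0.25 and complex IV 0.24. With genes outside their own group, the median r was 0.43 for the complex I core, 0.38 for the accessory genes and 0.38 for Fo. It was 0.28 for F1, 0.33 for complex III, 0.35 for complex II and 0.33 for complex IV, each above the value within. The assembly factors had 0.32 within and 0.27 outside.

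The means of the complexes moved together as well. Their pairwise r ran from 0.31 (complex III with the assembly factors) to 0.93 (complex II with F1), with a median of 0.76. Atp5e, the epsilon subunit of F1, followed the mean of the other genes most closely (r = 0.95), ahead of the core subunit Ndufs3 (0.93), Ndufs7 (0.91), the Fo stalk gene Atp5j (0.91) and Cox7a2 (0.91). Atp5k and Ndufa8, whose promoters are printed above, gave 0.90 and 0.81, and Sdhd and Atp5c1 gave 0.71 and 0.66. The 4 genes that followed least were Cox6a2 (-0.25), the F1 alpha subunit gene Atp5a1 (-0.23), Cox5a (-0.099) and the assembly factor Ndufaf1 (-0.065).

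**Figure D3:**
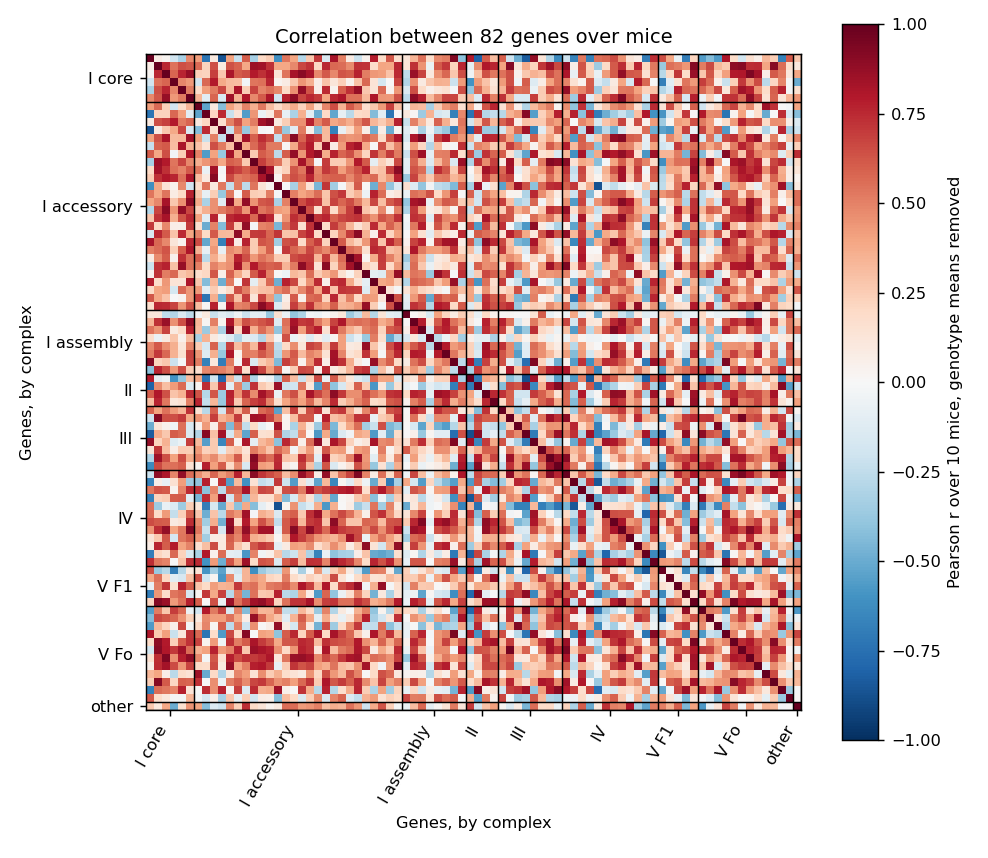
Pearson r between each pair of the 82 genes over 10 mice after genotype means were removed (red positive, blue negative), ordered by complex along both axes with black lines between complexes. Red prevails within and between complexes, with a median of 0.36, and single blue lines mark genes such as Cox6a2, Atp5a1 and Cox5a.

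Averaged over the 82 genes and set to the 10-mouse mean of each, wildtype mice 1 to 5 stood at -0.036, -0.034, 0.088, 0.046 and -0.18. Heterozygous mice 1 to 5 stood at 0.026, 0.19, -0.12, -0.053 and 0.076. The highest (heterozygous mouse 2) and the lowest (wildtype mouse 5) were 1.30-fold apart, and the groups overlapped, at -0.024 ± 0.10 and 0.024 ± 0.12 (SD, n = 5 each). All 8 complex means lay below 0 in wildtype mouse 5, at -0.12 to -0.25, and above 0 in heterozygous mouse 2, at 0.032 to 0.28. Between its lowest and highest mouse a single gene spanned from 1.20-fold (Ndufv1) to 4.90-fold (Cox8c) and 5.20-fold (Cox6a2). Both of the mice at the extremes carried raised lymphocyte markers, as did heterozygous mouse 5, at 0.076. The part of lymphocytes in these values was not tested.

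A measure of transcript shortening also differed between the mice. The difference between 3′ and 5′ control probe sets, which grows as transcripts are shortened, was highest in heterozygous mice 3 and 4 (3.56 and 3.59), against 3.21 to 3.37 in the other 8 mice. Its r with the mean of the 82 genes was -0.69 (n = 10, genotype means removed). In a fit added after the data were seen, with genotype as a covariate, 128 of 147 member probe sets had a negative slope on it (87.1%), against 60.5% of all. None of 147 passed the adjusted threshold in limma, and 0% of all did, while 17 had an unadjusted p under 0.05, against 5.73% of all. Atp5e, which followed the other genes most closely, read 11.65, 11.51, 12.07, 11.84 and 11.00 in wildtype and 11.71, 12.12, 11.12, 11.03 and 11.90 in heterozygous mice. It was low in wildtype mouse 5 and in heterozygous mice 3 and 4, and its slope was -2.75 (SE 0.72). With this measure as a covariate the median genotype difference was 0.12, against 0.045 over all probe sets, with 125 of 147 higher (85.0%, against 61.0%) and 0 passing.

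**Figure D4:**
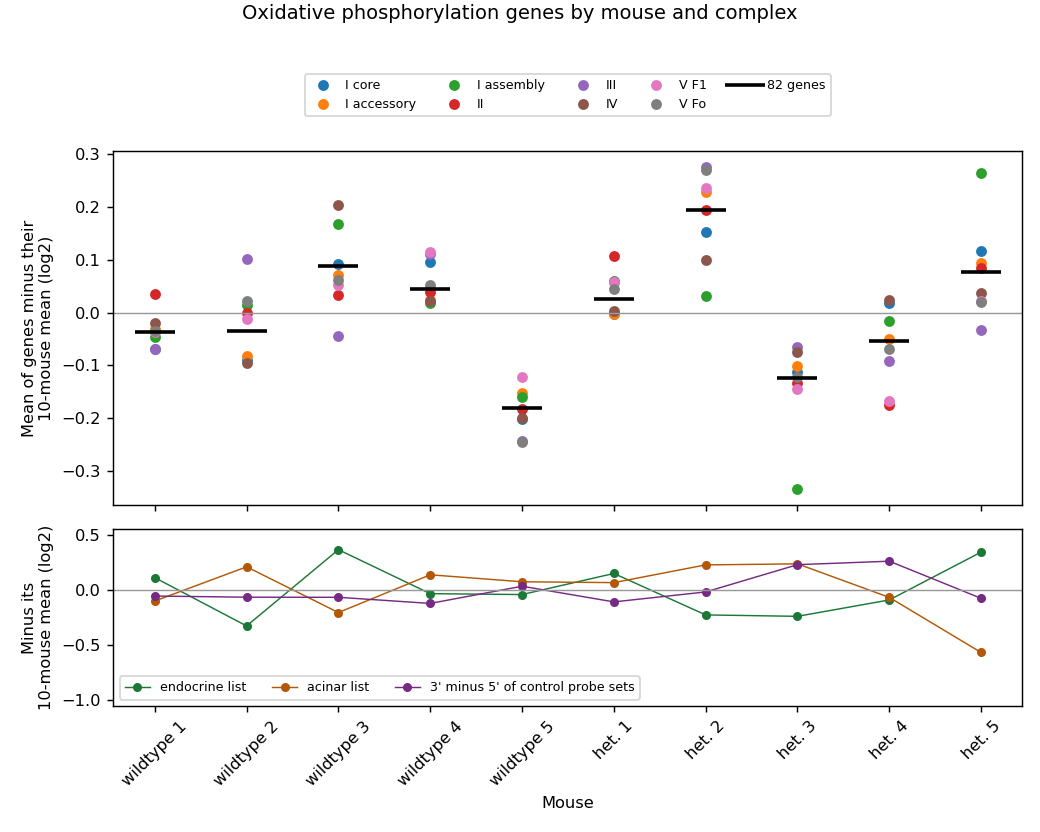
Upper panel, mean of each complex per mouse relative to its 10-mouse mean (log2), with a black bar for the 82 genes; lower panel, endocrine and acinar list means and the 3′ minus 5′ difference, each relative to its 10-mouse mean. All complexes lie on 1 side of 0 in wildtype mice 4 and 5 and in heterozygous mice 2 and 3. The bar for the 82 genes is highest in heterozygous mouse 2 (0.19) and lowest in wildtype mouse 5 (-0.18).

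The next comparison asked whether these genes vary with the cell content of the samples. Endocrine content was the mean of 32 islet genes such as hormones and their processing enzymes, at 12.24 ± 0.25 in wildtype and 12.22 ± 0.25 in heterozygous islets. Acinar content was the mean of 26 acinar genes such as digestive enzymes, at 14.79 ± 0.17 and 14.74 ± 0.33, lowest in heterozygous mouse 5 (14.20). Of these 26, only 7 had a mean level under 14 (log2). The 2 means opposed each other (r = -0.85, n = 10, genotype means removed), so that their slopes cannot be told apart. In bulk samples fewer cells of a type and less RNA per cell cannot be told apart either. The mean of the 82 genes had r = 0.30 with the endocrine and -0.20 with the acinar mean.

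Per log2 unit of the endocrine mean, with genotype in the fit, 0 of 147 member probe sets passed limma's adjusted threshold, against 3.97% of all. At an unadjusted p under 0.05 there were 24 (16.3%), against 22.6%. Positive slopes were found in 90 of 147 (61.2%), against 61.7%, with a median of 0.11, against 0.15. After a further quantile normalization 63 of 147 were positive (42.9%, against 52.3% of all), and after median centring 112 (76.2%, against 69.9%), so that the prevailing direction of the slopes changed with the scaling. With the 3′ minus 5′ difference as a further covariate 70 were positive (47.6%, against 60.6%), with a median of -0.019. Per log2 unit of the acinar mean, 0 of 147 passed, against 5.29% of all, and 23 (15.6%) had an unadjusted p under 0.05, against 24.2%. Positive slopes were found in 66 (44.9%), against 37.3%, with a median of -0.047, against -0.16. Quantile normalization gave 85 positive (57.8%, against 48.4% of all) and median centring 61 (41.5%, against 33.4%). Without heterozygous mouse 2 there were 42 (28.6%, against 37.1%), with a median of -0.17, against -0.17 over all. With all mice and the acinar mean taken over its 7 genes under 14, 65 were positive (44.2%, against 37.4%) and 0 passed. Without heterozygous mouse 5, whose acinar mean was lowest, 0 of all 18567 probe sets passed in either fit.

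By complex, the assembly factors had a median endocrine slope of 0.48 with 5 of 8 positive, complex II 0.32 with 3 of 4, and complex IV 0.23 with 8 of 12. The 26 accessory genes of complex I had 0.14, F1 0.16, the core of complex I 0.13 and Fo 0.12. Complex III had -0.092, with 3 of 8 positive. The differences between complexes were not tested.

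Cox6a2 had the steepest endocrine slope, 2.02 (SE 0.70, 95% interval 0.47 to 3.57), with limma's adjusted p = 0.128. Its acinar slope was -1.71 (SE 0.73). The endocrine slope was 1.19 without wildtype mouse 2, and the acinar slope was -4.10 without heterozygous mouse 5. It was highest in wildtype mouse 3 and lowest in wildtype mouse 2, which had the highest (12.59) and the lowest (11.90) endocrine means. Heterozygous mouse 5, with an endocrine mean of 12.57, read 9.14, which is not among the highest 3 values. With the 3′ minus 5′ difference as a further covariate the slope was 3.02 (SE 0.31). It passed, at an adjusted p of 0.0346 in limma, and the second Cox6a2 probe set gave 3.27 with the same adjusted p. With that covariate 3 of 147 member probe sets passed, against 276 of all 18567. The common isoform Cox6a1 had an endocrine slope of -0.40 (SE 0.19). The difference between the slopes of these isoforms was not tested.

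The assembly factors Ndufaf7, a methyltransferase for a core subunit, and Ndufaf6 followed, with endocrine slopes of 1.16 (SE 0.35, adjusted p 0.095 in limma) and 1.15 (SE 0.37). Their acinar slopes were -1.01 (SE 0.37) and -0.96 (SE 0.40). Ndufaf7 read 6.88, 6.49, 7.28, 7.05 and 7.24 in wildtype and 6.87, 6.76, 5.99, 6.80 and 7.21 in heterozygous mice. Its lowest value, in heterozygous mouse 3, stood beside an endocrine mean of 11.99, close to the lowest.

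Opposite slopes were found for other enzymes of the chain. Cox5a had -0.70 (SE 0.18) on the endocrine mean, with limma's adjusted p = 0.0636, the lowest of any member, and its other 2 probe sets gave -0.27 and -0.94. On the acinar mean they gave 0.58, 0.27 and 0.93. Uqcrc1, a core protein of complex III, read 9.90, 10.45, 9.86, 10.18 and 9.49 in wildtype and 10.03, 10.32, 10.32, 10.05 and 9.67 in heterozygous mice. Its endocrine slope was -0.88 (SE 0.32) and its acinar slope 0.84 (SE 0.31). Sdhb read 10.73, 11.06, 10.61, 10.91 and 10.38 in wildtype and 10.91, 11.22, 11.06, 10.54 and 10.43 in heterozygous mice, with slopes of -0.76 (SE 0.33) and 0.89 (SE 0.27). For both genes wildtype mouse 5 was the lowest. Without it the acinar slopes of 4 of 147 member probe sets passed in limma, against 1281 of all 18567. Among the 4 were Uqcrc1 (0.90, adjusted p 0.0263) and Sdhb (0.93, adjusted p 0.0308). The others were Cox5a (its dimmest probe set, 0.96, adjusted p 0.0437) and Atp5d (0.78, adjusted p 0.0391). Cox8c had an acinar slope of 1.26 (SE 0.75) and an endocrine slope of -0.98 (SE 0.83).

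Within complex II the genes thus differed in direction. Sdhb had a negative endocrine slope, while Sdha (0.27, SE 0.18), Sdhc (0.70, SE 0.35) and Sdhd (0.38, SE 0.22) had positive ones, none of which passed.

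**Figure D5:**
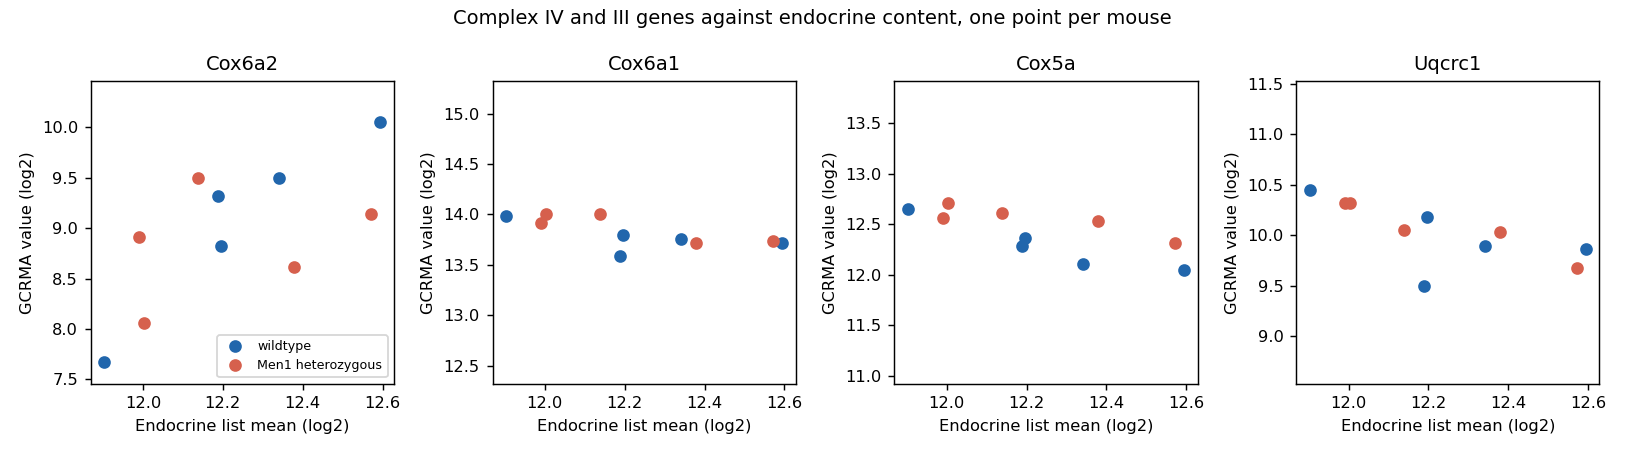
Log2 GCRMA level (vertical axis, spans of equal width) of Cox6a2, Cox6a1, Cox5a and Uqcrc1 against the endocrine list mean (horizontal axis, log2), with 1 point per mouse (blue wildtype, red heterozygous). Cox6a2 tends upwards with a slope of 2.02, while the other 3 tend downwards with slopes of -0.40 to -0.88, and none passed the adjusted threshold.

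Other genes of the pathway showed the same absence of calls between genotypes. These lists take 1 probe set per gene. They are set beside 54.4% higher and a median of 0.014 over all 10538 genes read in that way. Of 16 genes for electron carriers and ubiquinone synthesis, 0 passed, with 10 higher and 6 lower and a median of 0.012. Cytochrome c (Cycs) differed by 0.21 (SE 0.14), Cyc1 by -0.021 (SE 0.12) and Coq6, a ubiquinone hydroxylase, by 0.30 (SE 0.13). Of 38 further assembly factors, 0 passed, with 32 higher and 6 lower and a median of 0.097. Tmem186, an assembly factor of complex I, differed by 0.53 (SE 0.23), and Lrpprc, which stabilises mitochondrial mRNA, by 0.27 (SE 0.13).

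Of 19 regulators of mitochondrial biogenesis, 0 passed, with 13 higher and 6 lower and a median of 0.045. Tfb1m, a methyltransferase of mitochondrial ribosomal RNA, stood at 6.81 ± 0.07 and 7.20 ± 0.27 (SD, n = 5 each). Its difference of 0.38 (SE 0.13) had an adjusted p of 0.9999 in limma. The coactivator Ppargc1a differed by 0.078 (SE 0.090), Nrf1 by 0.045 (SE 0.11), Gabpa by -0.059 (SE 0.11) and Tfam by -0.043 (SE 0.12). Of 11 genes for carriers, channels and other proteins of the mitochondrial membranes, 0 passed, with 6 higher and 5 lower. The channel gene Vdac1 differed by 0.18 (SE 0.084). ND5, the only gene of mitochondrial DNA measured here, stood at 15.35 ± 0.22 and 15.40 ± 0.21. On the acinar mean 1 of the 16 electron carrier and ubiquinone genes passed, and 1 of the 38 assembly factors. The other lists had 0, and 5.29% of all probe sets passed. The 2 genes were Coq3, a ubiquinone methyltransferase (slope 1.62, adjusted p 0.013 in limma), and Sdhaf2, which attaches the flavin of Sdha (-1.17, adjusted p 0.021). Without heterozygous mouse 5, 0 of all 18567 probe sets passed on the acinar mean.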

How the data were processed

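Total RNA of about 100 islets per mouse was amplified over 2 cycles from 100 ng, per the labels' protocols, and hybridised to Affymetrix Mouse Genome arrays. The authors deposited log2 expression per probe set, and the submitters' processing notes name GCRMA. That method corrects background by probe sequence and normalizes across arrays, which narrows the spread of dim probe sets. Probe sets were named by the platform annotation (34958 with 1 symbol, 932 with several, which were not used, 9211 unnamed), and all 90 member symbols were found in RefSeq.

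All 18567 probe sets above log2 4 on at least 5 arrays were fitted with limma 3.58.1 in R 4.3.3, and p-values, two-sided, were adjusted over all of them by Benjamini-Hochberg with a threshold of 0.05. Slopes on the acinar or endocrine mean had genotype as a covariate. The fits were tested on simulated data. The number of arrays limits the precision.

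Members, lists and tests were chosen with earlier results of these data known. Genes were named by rule: in each complex (F1 and Fo apart) the 2 smallest p, the Sdh genes, tissue isoform pairs, groups without overlap and the 3 steepest slopes each way. The extremes of level, range and correlation, genes called under an alternative, and examples from the pathway lists were named after their values were seen. Alternatives were other filters, scalings, variance settings, covariates, probe-set rules, thresholds, the replicate block and leaving out mice. The 3′ minus 5′ slope and leaving out heterozygous mice 2 and 5 were chosen after seeing the data.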

Additional observations from a re-analysis of the deposited data

Results flagged for a closer look

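Of 82 groups of 5 mice examined, 6 held a value far from the other 4, by a gap that chance gives in about 1 group in 20. Among wildtype mice, mouse 5 stood low for Cox8a (3.46, others 4.23 to 4.26) and for the mean of complex II (-0.18, others -0.0015 to 0.040). Wildtype mouse 2 stood low for Ndufa4 (8.93, others 9.26 to 9.37). Among heterozygous mice, mouse 2 stood high for Ndufb5 (12.00, others 11.56 to 11.69) and Atp5c1 (12.79, others 12.29 to 12.39). Heterozygous mouse 1 stood low for Ndufs8 (10.74, others 10.90 to 10.97).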

How the results depend on the processing

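For the genotype difference, 0 member probe sets passed under every alternative run. Of 1044 values of named genes under alternatives, 988 kept their direction and side of the threshold, 4 newly passed it, 0 stopped passing and 52 changed sign without passing on either side. Replicate numbers did not pair the mice (r of deviations 0.108, -0.043, -0.284, 0.032 and 0.106), and with the replicate block 0 members passed in all 3 fits, with a median genotype difference of 0.043. The block moved the slopes. Endocrine slopes were then positive for 122 of 147 members (against 65.1% of all probe sets), with a median of 0.43, and acinar slopes for 27 (18.4%, against 37.2%), with a median of -0.27.

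Genotype differences that changed sign were Cox5b after quantile normalization (-0.00046), median centring (-0.012), array weights (-0.0048) and the acinar covariate (-0.0024). Array weights also turned Atp5b (0.000075) and Cox7a2 (-0.021). The 3′ minus 5′ covariate turned Atp5b (0.058), Ndufa7 (0.12), Sdhd (0.087), Cox4i1 (0.0100) and Ndufa4 (0.10). The endocrine covariate turned Ndufa7 (0.0016) and Ndufa4 (0.0038), and the mean over probe sets of a gene turned Ndufa7 (0.096), Sdha (0.019) and Sdhd (0.080). Without heterozygous mice 2 and 5, Sdhc (-0.11), Atp5c1 (-0.045), Cox5b (-0.077), Cox6b1 (-0.018) and Cox7a2 (-0.12) turned. Leaving out 1 mouse at a time, the difference ran from -0.042 to 0.048 for Cox5b, from -0.055 to 0.025 for Atp5b, from -0.096 to 0.053 for Ndufa7 and from -0.078 to 0.031 for Sdhd. It ran from -0.088 to 0.092 for Ndufa4, from -0.034 to 0.084 for Cox7a2, from -0.58 to 0.017 for Cox6a2 and from -0.0039 to 0.23 for Uqcrq. For Cox8a it ran from -0.025 to 0.19, for Cox8c from -0.066 to 0.44, for Sdhb from -0.0026 to 0.20, for Atp5c1 from -0.028 to 0.095 and for Atp5o from -0.047 to 0.16. The cause was not tested.

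For the acinar slope the stricter filter called 1 of 136 member probe sets (Cox5a), against 1118 of all 12867. Quantile normalization called 2 of 147 (Cox5a and Uqcrb), against 965 of all 18567. Leaving out 1 mouse called from 0 to 4 of 147, against 0 to 1281 of all. For the endocrine slope quantile normalization called 2 of 147 (Cox5a and Uqcrb), against 537 of all 18567. The 3′ minus 5′ covariate called 3 (both of Cox6a2 and 1 of Cox5a), against 276 of all. Leaving out 1 mouse called from 0 to 1, against 0 to 861 of all. With both list means in the fit, the endocrine slopes of Sdhb (0.069) and Cox8c (0.49) changed sign. Leaving out 1 mouse, endocrine slopes ran from 1.19 to 2.55 for Cox6a2, from 0.86 to 1.33 for Ndufaf7, from 0.97 to 1.59 for Ndufaf6, from -1.11 to -0.68 for Uqcrc1, from -0.93 to -0.59 for Sdhb and from -1.65 to -0.42 for Cox8c. Acinar slopes ran from -4.10 to -1.21, -1.29 to -0.69, -1.25 to -0.75, 0.69 to 1.03, 0.78 to 1.18 and 0.86 to 1.68 for the same genes in that order. Probe sets near the floor, such as those of Cox8a and Cox7c, limit what can be seen of those genes.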
